A study of Bos taurus with 71 samples.

Results

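The genes described here encode the extracellular matrix of the gut wall and the integrins and other receptors that bind it. They were chosen as the genes that the study listed under the pathway name ECM-receptor interaction, together with genes of its table of immune-related genes whose symbols name a collagen, laminin, integrin, thrombospondin, fibronectin, tenascin, dystroglycan or related matrix protein. The rule gave 51 of the 21510 genes in the files: 19 came from the pathway list, 40 from the symbol pattern and 8 from both. The immune-related table at hand stops within the letter I, so members later in the alphabet came only from the pathway list, and 6 members carry an Ensembl identifier without a symbol. By role they were 5 fibrillar collagens, 3 collagen VI chains, 4 fibril-associated or transmembrane collagens, 8 basement membrane genes, 3 adhesive glycoproteins, dystroglycan, 12 matrix-binding integrin chains, 2 integrin-associated proteins and 7 leukocyte integrin chains.

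RNA-Seq was run on whole frozen tissue of the rumen, mid-jejunum and ileum of Holstein bull calves, with 3 calves per region at D0 and 5 per region at each of D7, D21 and D42, so that each region held 18 samples. The D0 calves were sampled soon after delivery without colostrum. All older calves received colostrum and milk, and those of D21 and D42 also had calf starter. Per the paper, which describes jejunum and ileum, tissue was rinsed with buffered saline at all ages except D0. Age, feeding and this handling therefore cannot be told apart. Values are CPM, read counts scaled to the mapped reads of each library, rounded to whole numbers. The depth of each library is therefore unknown here, and a step of 1 CPM sets the precision of genes with low values.

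The extracellular matrix is a network of secreted proteins that gives a tissue its shape. Fibrillar collagens form the tension-bearing fibres of the submucosa and lamina propria, and collagen IV, laminins and collagen VII build the basement membrane and its anchors beneath the epithelium. Integrins are receptors made of an alpha and a beta chain: some hold epithelial, muscle and stromal cells to collagen or laminin, while others are carried by leukocytes and guide their adhesion and homing. In calves the rumen is lined by a stratified squamous epithelium, the jejunum by absorptive villi, and the ileum holds a large continuous Peyer's patch.

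Marker genes were checked before the members were compared. Enterocyte markers summed to 0 to 4 CPM in the 18 rumen samples and to 2054 to 30488 CPM in the mid-jejunum, and the B cell markers CD79A and MS4A1 were at 0 in all 18 rumen samples. In ileum animals 1 of D0 and 1 of D42 the 7 B cell markers summed to 49 and 381 CPM, against 1307 to 2650 CPM in the 15 ileum samples outside the 3 named in the next sentence. These libraries, and ileum animal 2 of D0, also did not follow the CPM table of the study, matching it for at most 5.78% of 1280 genes against at least 96.7% in the other 33 of 36 intestinal samples. Rumen animal 2 of D0 stood apart in the matrix genes themselves: its fibrillar collagens summed to 4458 CPM, while animals 1 and 3 reached 44046 and 44415 CPM. All samples were kept under their labels, and the counts of calls that touch these 4 libraries are given with and without them. The distal jejunum files repeat the ileum values, and the distal jejunum was not used. The other 15 ileum samples follow the study's CPM table under the ileum label. For the 3 ileum samples that do not follow it, which label the values belong to is not known.

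Regional differences were large among the members from D7 onward. A member was called when limma gave a false discovery rate (FDR) under 0.05 over all genes tested and a fold change above 2 on the log2(CPM + 1) scale. Against the mid-jejunum, 20 of 50 members tested were higher and 7 lower in the rumen at D7, where 14.6% and 17.6% of all genes were called in these directions. At D21 the rumen had 11 higher and 9 lower (10.7% and 21.9% of all genes), and at D42 8 higher and 11 lower (10.0% and 23.5%). At D0 only 3 were higher and 5 lower (7.38% and 12.8%). The share of members higher in the rumen was thus above that of all genes at D7 and D21 and, by less, at D42, whereas the share of members lower was near or under that of all genes at every age. The lower counts include ITGAD and ITGAM, which did not pass the filter on low values in the rumen and entered only through the intestine, so that they had to differ.

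Against the ileum, 18 of 51 members were higher and 11 lower in the rumen at D7, with 14.3% and 25.2% of all genes called. The counts were 20 and 11 at D21 (13.8% and 30.1%) and 7 and 13 at D42 (10.6% and 32.3%). At D0 limma called 0 members in this comparison (2.60% and 2.93% of all genes), and 13 of the 51 had an unadjusted p under 0.05. Counts at an unadjusted p, here and below, are given without the share of all genes. They are no result about the members. From D7 on the mid-jejunum and ileum differed in fewer members than either did from the rumen, and fewer of all genes were called there too. In that comparison 4 members were higher and 0 lower in the mid-jejunum at D0 (6.04% and 2.83% of all genes), 2 and 9 at D7 (9.62% and 17.5%), 3 and 6 at D21 (12.1% and 14.7%), and 2 and 6 at D42 (7.64% and 13.3%). Between mid-jejunum and ileum the share of members was near or under that of all genes in both directions at every age. Against the ileum too, the share of members higher in the rumen was above that of all genes at D7 and D21 and near it at D42. The 3 regions share samples across these comparisons, so their counts are not independent. Against the ileum, ENSBTAG00000015650 likewise entered only through its ileal values, as it did together with ENSBTAG00000003709 between mid-jejunum and ileum.

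From D0 through D42 the median log2 difference of the members between rumen and mid-jejunum was 0.18, 0.84, 0.60 and 0.10, beside -0.03, 0.01, -0.23 and -0.31 over all genes tested. Between rumen and ileum the members' medians were 0.63, 0.79, 0.90 and 0.18, beside -0.08, -0.29, -0.43 and -0.53. The general shift of all genes toward higher values in the intestine was reduced by median-ratio scaling, which left it at -0.09 for rumen and ileum at D42. With that scaling the rumen had 18 higher and 8 lower members than the mid-jejunum at D21 (13.3% and 18.9% of all genes), and 12 and 8 at D42 (13.2% and 19.0%). Against the ileum it had 27 higher and 9 lower members at D7 (17.9% and 20.5%), then 31 and 9 (19.5% and 21.7%), and 18 and 10 at D42 (16.7% and 21.5%). Between mid-jejunum and ileum the scaled split was 3 higher and 7 lower at D7 (13.8% and 12.2%), then 6 and 5 (15.4% and 11.6%), and 3 and 4 at D42 (10.7% and 9.48%). Of the 186 calls over the 12 regional comparisons, 170 were also called after scaling, 0 changed sign, and 54 further calls appeared.

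**Figure D1:**
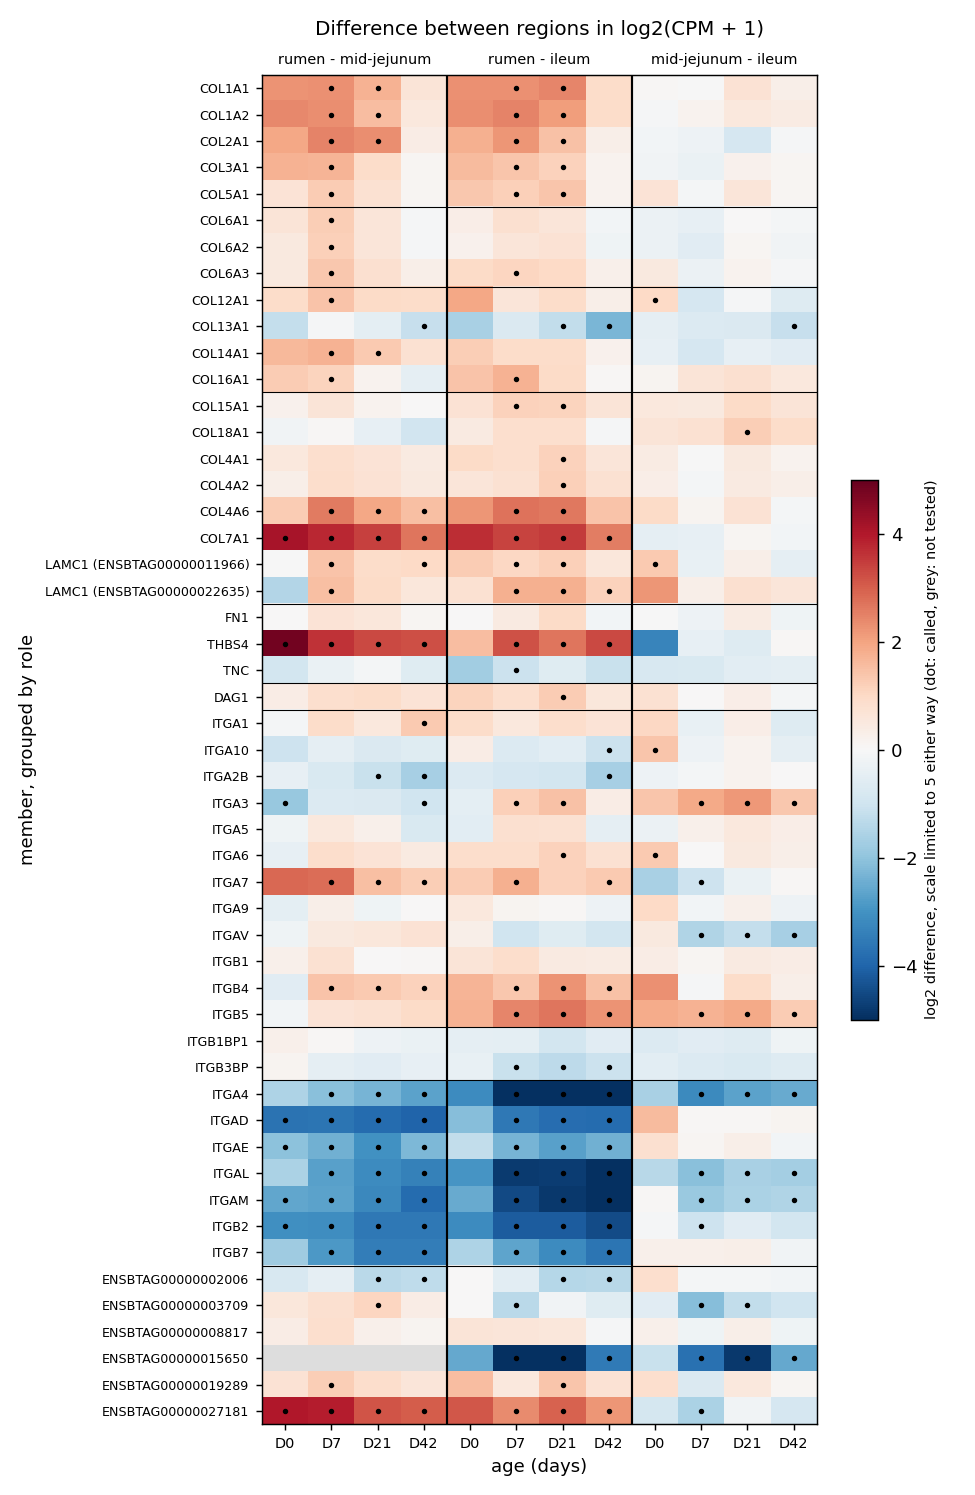
Heat map of the difference in log2(CPM + 1) for each of the 51 members (rows, grouped by role with lines between roles) in the 12 regional comparisons (columns, by age in days), with red for higher in the first region named and blue for lower; dots mark calls and grey marks a member not tested. The fibrillar collagens and, apart from COL18A1, the basement membrane collagens are red in the rumen columns, and the leukocyte integrins are blue. ITGA4 is at -5.28 between rumen and ileum at D7, with rumen values of 3, 1, 2, 3 and 2 CPM, near the 1 CPM step. The colours of ITGAD, ITGAM and ENSBTAG00000015650 in the rumen columns rest on rumen values listed at or near 0 and are no measure of size.

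The fibrillar collagens were higher in the rumen than in both intestinal regions at D7 and for the most part at D21, and were not called at D0 or D42. All 5 (COL1A1, COL1A2, COL2A1, COL3A1 and COL5A1) were called higher than in the mid-jejunum at D7 and 3 at D21, and all 5 were called higher than in the ileum at both ages. Of all genes, 14.6% and 10.7% were called higher than in the mid-jejunum at D7 and D21, and 14.3% and 13.8% than in the ileum. None was called between mid-jejunum and ileum at any age. From D0 to D42 the median of the 5 log2 differences from the mid-jejunum was 1.94, 2.30, 1.56 and 0.36 at the 4 ages.

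COL1A1 encodes the alpha-1 chain of type I collagen, the main fibre of connective tissue. In the rumen it measured 16549, 1086 and 13064 CPM in the D0 animals, 8115, 6575, 12082, 7863 and 3688 CPM at D7, 6155, 7915, 7898, 3233 and 1849 CPM at D21, and 1465, 1816, 4123, 2006 and 5114 CPM at D42. In the mid-jejunum it measured 1631, 1178 and 1143 CPM at D0, 940, 658, 1119, 3015 and 3123 CPM at D7, 1939, 997, 2814, 1477 and 710 CPM at D21, and 864, 1798, 2662, 1352 and 2144 CPM at D42. In the ileum it measured 3131, 695 and 921 CPM at D0, 1294, 1878, 1461, 1248 and 1488 CPM at D7, 898, 743, 712, 1030 and 972 CPM at D21, and 3647, 898, 1001, 1126 and 1250 CPM at D42. All rumen samples of D7 and D21 were thus above all ileum samples of the same age, the mid-jejunum overlapped the rumen at D21, and at D42 the 3 regions overlapped. The rumen exceeded the mid-jejunum by 2.30 ± 0.45 (log2, SE) at D7 (limma, FDR = 0.000651) and 1.73 ± 0.46 at D21 (FDR = 0.00598), and the ileum by 2.29 ± 0.26 (FDR = 6.81e-06) and 2.45 ± 0.36 (FDR = 4.81e-05). At D42 the difference was 0.65 ± 0.38 from the mid-jejunum (FDR = 0.164) and 0.92 ± 0.45 from the ileum (FDR = 0.0896).

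COL1A2, the partner chain of type I collagen, followed the same course. It measured 6434, 4410, 10589, 6478 and 2644 CPM in the rumen at D7 against 741, 622, 848, 2053 and 2083 CPM in the mid-jejunum, with no overlap, and the difference was 2.32 ± 0.42 (limma, FDR = 0.000354). At D42 its rumen values were 1229, 1526, 3303, 1443 and 3529 CPM, within reach of the 772 to 2237 CPM of the mid-jejunum. COL2A1 encodes the collagen best known from cartilage. It was listed at 56, 4 and 23 CPM in the rumen at D0, 23, 15, 55, 23 and 11 CPM at D7, and 5, 1, 10, 6 and 8 CPM at D42, and no mid-jejunum sample exceeded 7 CPM. Its rumen excess over the mid-jejunum was 2.48 ± 0.38 at D7 (FDR = 9.49e-05) and 2.33 ± 0.31 at D21 (FDR = 3.06e-05), at CPM where the pseudocount of 1 lowers the fold.

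The D0 result for fibrillar collagens rests on rumen animal 2. That library was picked out by its low values of these same genes, so all fits without it are a description. Their small errors and FDRs follow in part from leaving out that library. Without it all 5 were called higher in the rumen than in the mid-jejunum at D0, with COL1A1 at 3.50 ± 0.27 (limma, FDR = 0.00122) and COL1A2 at 3.41 ± 0.18 (FDR = 0.00045). In the whole set 26 members were then called, 21 higher and 5 lower, against 17.4% and 15.9% of all genes. Without that library 5 members were called higher and 0 lower than in the ileum at D0 (5.06% and 2.93% of all genes), namely COL7A1, COL12A1, COL14A1, LAMC1 (ENSBTAG00000011966) and ENSBTAG00000019289. Leaving out both samples of calf 1, 2 or 3 at D0 gave 2, 23 and 5 calls between rumen and mid-jejunum. At D42, without ileum animal 1, COL1A1 exceeded the ileum by 1.28 ± 0.35 (FDR = 0.00665) and COL1A2 by 1.31 ± 0.32 (FDR = 0.0033), and 12 members were higher and 12 lower in the rumen (13.2% and 33.1% of all genes). With all samples, COL1A1, COL1A2 and COL4A6 were also called higher than in the ileum at D42 under median-ratio scaling.

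Fibroblast markers moved with the fibrillar collagens. The 6 fibroblast markers, of which DCN and DPT are matrix genes themselves, summed to 1793, 498 and 3665 CPM in the rumen at D0 and to 406, 372, 797, 361 and 1068 CPM at D42, where the fibrillar collagens summed to 4887, 5685, 12284, 5867 and 14463 CPM in the same animals. Over all samples the fibroblast sum ran from 356 to 3665 CPM in the rumen, 337 to 1146 CPM in the mid-jejunum and 454 to 1189 CPM in the ileum, and the 4 smooth muscle markers from 1348 to 12835, 740 to 3387 and 364 to 4663 CPM. Of these rumen sums, DCN held 1111, 320 and 2654 CPM at D0 and 208, 198, 428, 183 and 642 CPM at D42. DPT held 375, 81 and 587 CPM at D0 and 88, 77, 182, 70 and 218 CPM at D42. The sum is thus mostly matrix RNA and is no separate measure of fibroblasts. The rumen animals with the most fibroblast marker RNA were also those with the most fibrillar collagen RNA at both ages. The smooth muscle sum was higher in the rumen but did not follow the collagens over age, with rumen medians of 3457 CPM at D0 and 5051 CPM at D42 beside 44046 and 5867 CPM for the fibrillar collagens. None of the fibroblast markers was at 0 in any sample. In whole tissue, more cells of a type and more RNA per cell cannot be told apart, and the part of tissue makeup in these results was not tested.

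**Figure D2:**
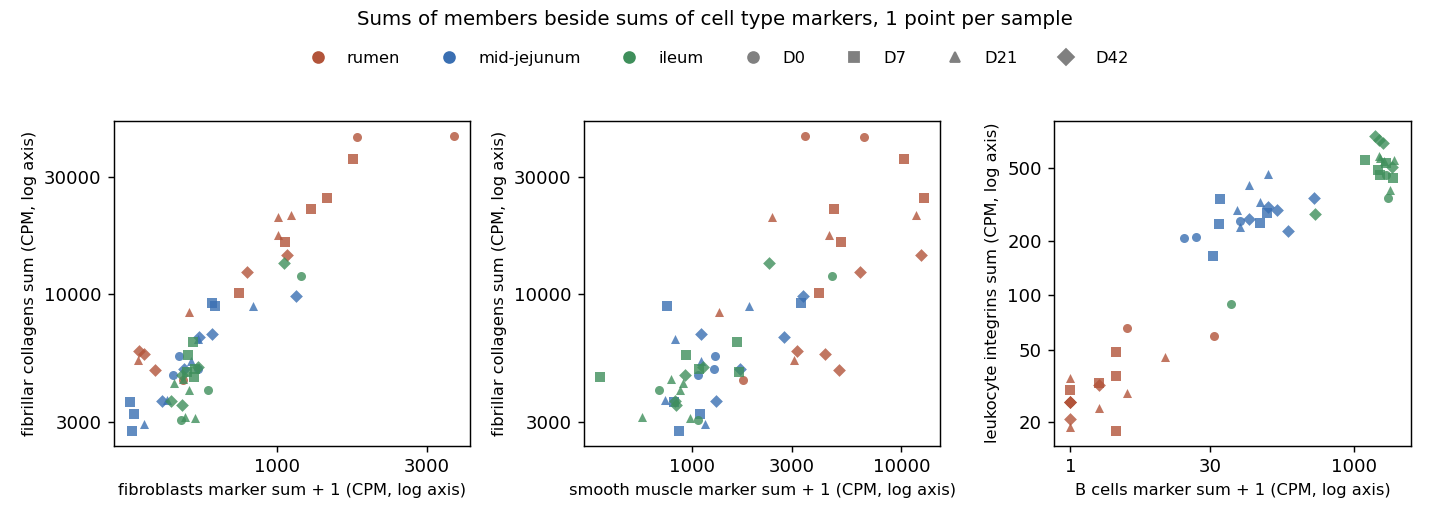
Sums over members against sums over cell type markers in the 54 samples (CPM, log axes; colour for region, shape for age), with fibrillar collagens against fibroblast and smooth muscle markers and leukocyte integrins against B cell markers. The rumen samples of D0 other than animal 2 lie highest in fibrillar collagens (44046 and 44415 CPM), and ileum animals 1 of D0 and D42 lie left of the other ileum samples in B cell markers (49 and 381 CPM).

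Collagen VI forms beaded filaments between basement membranes and fibrillar collagen. Its 3 chains were called higher in the rumen than in the mid-jejunum at D7, and only COL6A3 was called against the ileum, also at D7. COL6A3 measured 1176, 676, 1607, 781 and 493 CPM in the rumen at D7, 188, 232, 269, 460 and 792 CPM in the mid-jejunum and 451, 509, 432, 310 and 369 CPM in the ileum. Rumen animals 2, 4 and 5 lay below the highest mid-jejunum sample, and rumen animal 5 below the highest ileum sample. The difference from the mid-jejunum was 1.37 ± 0.39 (limma, FDR = 0.00883), that of COL6A1 1.23 ± 0.29 (FDR = 0.0028) and that of COL6A2 1.18 ± 0.34 (FDR = 0.00921). Leaving out calf 3 ended the call of all 3 chains, and leaving out calf 1 that of COL6A2 and COL6A3. Without rumen animal 2 of D0 all 3 were also called higher than in the mid-jejunum at D0, by 1.53 ± 0.11 for COL6A1 (FDR = 0.00106), 1.40 ± 0.11 for COL6A2 (FDR = 0.0014) and 1.47 ± 0.09 for COL6A3 (FDR = 0.000758). Median-ratio scaling added calls of COL6A1 against the ileum at D7, of all 3 against it at D21, and of COL6A3 against the mid-jejunum at D21. At D42 the 3 chains differed from the mid-jejunum by -0.05 to 0.29.

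Among the fibril-associated and transmembrane collagens, COL14A1 and COL12A1, which sit on the surface of collagen fibres, were called higher in the rumen than in the mid-jejunum at D7. With all samples neither was called between rumen and ileum at any age. Median-ratio scaling added calls against the ileum for COL14A1 at D7 and for both at D21. COL16A1 was called higher in the rumen than in each intestinal region at 1 age. COL14A1 measured 313, 211, 354, 211 and 133 CPM in the rumen at D7 against 37, 52, 59, 115 and 108 CPM in the mid-jejunum, with no overlap. It differed by 1.76 ± 0.32 at D7 (limma, FDR = 0.00041) and 1.30 ± 0.29 at D21 (FDR = 0.00207). COL12A1 exceeded the mid-jejunum by 1.44 ± 0.44 at D7 (FDR = 0.0131), a call that was lost without calf 1 or calf 3, and its rumen values of 132 to 597 CPM overlapped the 58 to 203 CPM of the mid-jejunum. COL13A1, a transmembrane collagen of cell contacts, ran the other way. It was listed at 2 CPM in each rumen sample of D42, at 3, 6, 7, 6 and 7 CPM in the mid-jejunum and at 14, 18, 19, 10 and 10 CPM in the ileum, so the 3 regions did not overlap. The rumen was lower than the mid-jejunum by -1.14 ± 0.21 (FDR = 0.00051) and than the ileum by -2.29 ± 0.22 (FDR = 5.98e-06), while the first of these calls was lost under median-ratio scaling.

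Some basement membrane genes were called higher in the rumen at every age. Of the 8, the numbers called higher in the rumen than in the mid-jejunum were 1, 4, 2 and 3 at D0, D7, D21 and D42, and those called higher than in the ileum were 0, 5, 7 and 2. None was called lower in the rumen. Of all genes, 7.38%, 14.6%, 10.7% and 10.0% were called higher than in the mid-jejunum at these ages. Against the ileum the shares were 2.60%, 14.3%, 13.8% and 10.6%. COL7A1 encodes type VII collagen, the anchoring fibril that fastens the basement membrane of stratified epithelia to the tissue below, and its rumen values exceeded those of the intestine in every sample. It measured 681, 65 and 357 CPM in the rumen at D0, 132, 219, 137, 213 and 377 CPM at D7, 222, 164, 186, 212 and 207 CPM at D21, and 114, 102, 75, 170 and 184 CPM at D42. The mid-jejunum held 7 to 29 CPM and the ileum 7 to 53 CPM over all ages, with the 53 CPM in ileum animal 1 of D42. The rumen exceeded the mid-jejunum by 4.13 ± 0.86 at D0 (limma, FDR = 0.0211), 3.78 ± 0.29 at D7 (FDR = 1.1e-07), 3.41 ± 0.21 at D21 (FDR = 3.4e-08) and 2.68 ± 0.27 at D42 (FDR = 3.14e-06). Over the ileum the excess was 3.37 ± 0.26 at D7 (FDR = 2.18e-07), 3.51 ± 0.16 at D21 (FDR = 1.21e-09) and 2.55 ± 0.39 at D42 (FDR = 0.000187), and at D0 it was 3.68 ± 0.96 (FDR = 0.0811). The D0 call against the mid-jejunum was lost without calf 1 (3.49, FDR = 0.193) or calf 3 (3.69, FDR = 0.237), and without rumen animal 2 the difference was 5.10 ± 0.36 (FDR = 0.000947).

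COL4A6 is a chain of the collagen IV network found beneath some epithelia and around smooth muscle. It measured 76, 90, 77, 66 and 80 CPM in the rumen at D7, 11, 8, 7, 19 and 19 CPM in the mid-jejunum and 13, 9, 8, 12 and 13 CPM in the ileum, with the rumen clear of both. The rumen exceeded the mid-jejunum by 2.61 ± 0.25 at D7 (limma, FDR = 9.45e-07), 1.92 ± 0.20 at D21 (FDR = 3.48e-06) and 1.52 ± 0.26 at D42 (FDR = 0.000282). At D42 the difference from the ileum was 1.43 ± 0.74 (FDR = 0.108), where ileum animal 1 held 118 CPM and the other 4 held 3 to 16 CPM, and without that library it was 2.18 ± 0.41 (FDR = 0.000553).

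LAMC1, the gamma-1 chain of most laminins, is given by the study's tables for 2 identifiers, and whether reads were shared between them was not tested. ENSBTAG00000011966 measured 416, 279, 422, 179 and 198 CPM in the rumen at D7 against 66, 69, 88, 160 and 191 CPM in the mid-jejunum, and the ranges overlapped. ENSBTAG00000022635 measured 266, 271, 315, 227 and 258 CPM in the rumen at D7 against 75, 83, 65, 104 and 170 CPM in the mid-jejunum and 88, 79, 64, 56 and 102 CPM in the ileum, with no overlap. For this second identifier the rumen excess was 1.50 ± 0.22 over the mid-jejunum (limma, FDR = 5.18e-05) and 1.79 ± 0.16 over the ileum (FDR = 5.92e-07). COL4A1, COL4A2 and COL15A1, further collagens of the basement membrane zone, were called higher in the rumen than in the ileum at D21, COL15A1 also at D7, and with all samples none of the 3 was called against the mid-jejunum at any age. Without rumen animal 2, COL4A1 and COL4A2 exceeded the mid-jejunum at D0 by 1.36 ± 0.14 (FDR = 0.00267) and 1.14 ± 0.09 (FDR = 0.00119). Without ileum animal 1 of D42, COL15A1 and COL4A2 exceeded the ileum at D42 by 1.11 ± 0.29 (FDR = 0.00549) and 1.08 ± 0.33 (FDR = 0.0128) in the rumen, and COL15A1 by 1.08 ± 0.27 (FDR = 0.00577) in the mid-jejunum.

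COL18A1, a collagen of vascular and epithelial basement membranes, was called with all samples in 1 comparison, higher in the mid-jejunum than in the ileum at D21 (1.25 ± 0.23, limma, FDR = 0.000618). Without ileum animal 1 it was also called there at D42 (1.08 ± 0.18, FDR = 0.000599), and median-ratio scaling added D7 and D42 there and D7 and D21 between rumen and ileum. Against the mid-jejunum, rumen COL18A1 ran lower at D42, with 129, 122, 164, 126 and 209 CPM against 282, 317, 353, 317 and 202 CPM. That difference was not called.

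**Figure D3:**
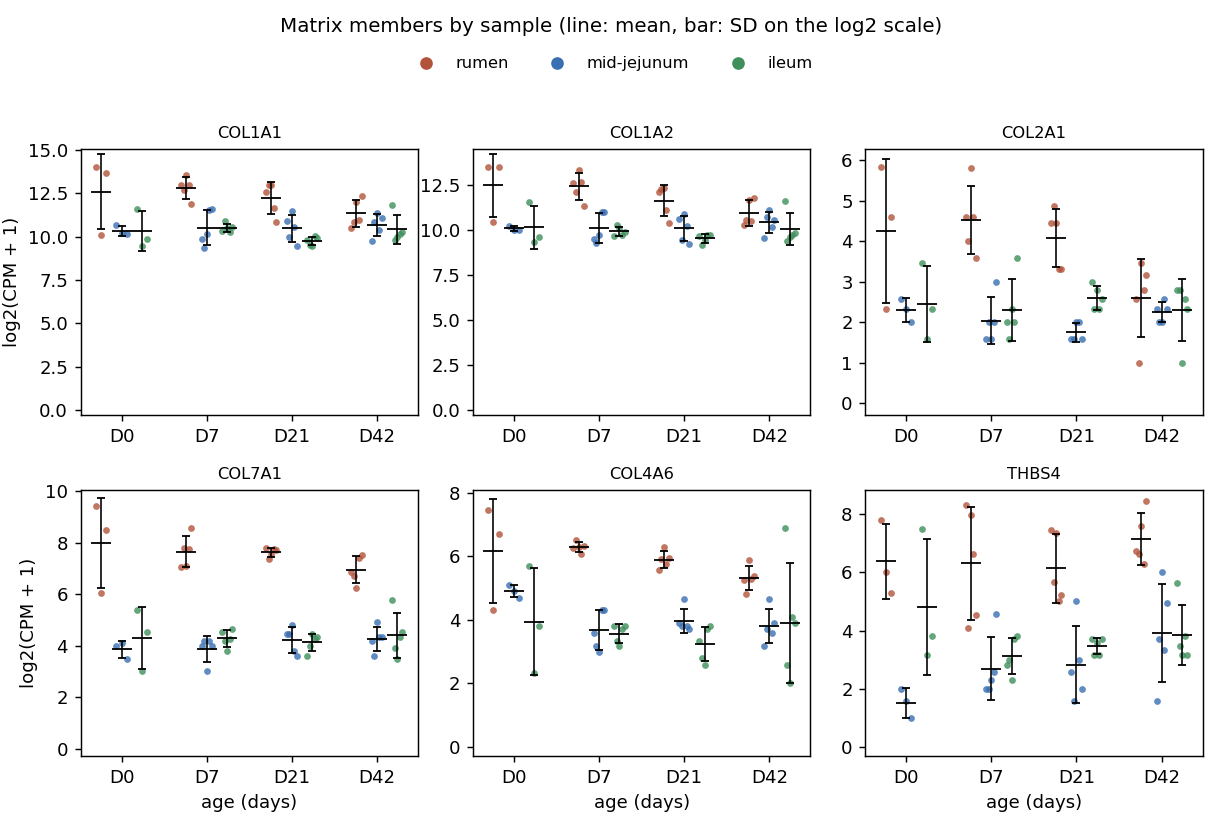
Values of 6 matrix members in each sample by age (days) and region on the log2(CPM + 1) scale, with points for samples, a line for the mean and a bar for 1 SD of the log2 values. Rumen COL7A1 lies above both intestinal regions at every age, COL1A1, COL1A2 and COL2A1 draw together at D42, and the lowest rumen point at D0 in the 5 collagen panels is animal 2.

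Of the adhesive glycoproteins, THBS4, a thrombospondin of muscle, tendon and vessel matrix, was called higher in the rumen than in the mid-jejunum at all 4 ages. Its rumen values were 222, 64 and 38 CPM at D0, 314, 16, 249, 98 and 22 CPM at D7, 174, 50, 161, 31 and 36 CPM at D21, and 106, 98, 189, 77 and 350 CPM at D42. The mid-jejunum values were 3, 2 and 1 CPM at D0, 3, 3, 4, 5 and 23 CPM at D7, 5, 2, 31, 7 and 3 CPM at D21, and 2, 12, 64, 9 and 30 CPM at D42. Rumen and mid-jejunum overlapped at D7 and met at 31 CPM at D21, and the rumen animals of D7 spread from 16 to 314 CPM. The differences were 4.84 ± 0.69 at D0 (limma, FDR = 0.00542), 3.60 ± 0.78 at D7 (FDR = 0.00148), 3.30 ± 0.65 at D21 (FDR = 0.000878) and 3.22 ± 0.70 at D42 (FDR = 0.00159), and the D0 call was lost without calf 3 (FDR = 0.0572). Over the ileum the rumen excess was 3.17 ± 0.74 at D7 (FDR = 0.00209), 2.67 ± 0.45 at D21 (FDR = 0.000149) and 3.29 ± 0.52 at D42 (FDR = 0.000224).

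TNC, tenascin-C, a matrix protein of remodelling tissue, was called once. It measured 165, 126, 210, 96 and 69 CPM in the rumen at D7 and 231, 464, 365, 188 and 165 CPM in the ileum, a partly overlapping difference of -1.07 ± 0.33 (limma, FDR = 0.0114) that fell under the fold threshold after median-ratio scaling (-0.82, FDR = 0.0489) and was lost without calf 2. FN1, fibronectin, the ligand of several integrins, was called in none of the 12 regional comparisons, where the largest difference was 0.97 ± 0.36 between rumen and ileum at D21 (FDR = 0.0288). Its rumen values there were 969, 1034, 1790, 371 and 509 CPM and its ileum values 470, 336, 284, 526 and 501 CPM, and it was called with median-ratio scaling (1.37, FDR = 0.00229) and without calf 4 or calf 5. DAG1, the precursor of dystroglycan, a laminin receptor of epithelium and muscle, measured 107, 143, 165, 109 and 121 CPM in the rumen at D21 and 57, 46, 36, 63 and 65 CPM in the ileum. The groups did not overlap and differed by 1.27 ± 0.18 (FDR = 3.26e-05), and this was the only regional call of DAG1 before scaling. Median-ratio scaling added calls higher in the rumen than in the mid-jejunum at D21 and than in the ileum at D7 and D42.

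The matrix-binding integrins did not move as 1 group. Of the 12 chains, those called higher in the rumen than in the mid-jejunum numbered 0, 2, 2 and 3 at D0, D7, D21 and D42 and those called lower 1, 0, 1 and 2, and against the ileum they numbered 0, 4, 4 and 3 higher and 0, 0, 0 and 2 lower. Of all genes, 7.38%, 14.6%, 10.7% and 10.0% were higher and 12.8%, 17.6%, 21.9% and 23.5% lower than in the mid-jejunum. Against the ileum the shares were 2.60%, 14.3%, 13.8% and 10.6% higher and 2.93%, 25.2%, 30.1% and 32.3% lower. ITGB1, the beta chain shared by most collagen and laminin receptors, was called in none of the 12 comparisons before scaling, and the same held for ITGA5 and ITGA9. Their largest differences were 0.87, 0.79 and 1.01. Median-ratio scaling added calls higher in the rumen than in the ileum for ITGB1 at D7 and for ITGA5 at D7 and D21. It also added ITGA9 at D0, higher in the mid-jejunum than in the ileum.

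ITGB4 is the beta chain that joins ITGA6 in hemidesmosomes, the rivets between basal epithelial cells and the basement membrane. In the rumen it measured 335, 238 and 232 CPM at D0, 236, 482, 240, 326 and 356 CPM at D7, 316, 366, 330, 464 and 281 CPM at D21, and 270, 279, 257, 386 and 325 CPM at D42. In the mid-jejunum it measured 479, 342 and 380 CPM at D0, 156, 61, 129, 130 and 136 CPM at D7, 145, 118, 156, 127 and 149 CPM at D21, and 116, 105, 175, 150 and 133 CPM at D42. From D7 on, every rumen sample lay above every mid-jejunum sample, whereas at D0 the mid-jejunum samples were the highest. The rumen excess over the mid-jejunum was 1.43 ± 0.26 at D7 (limma, FDR = 0.000316), 1.32 ± 0.14 at D21 (FDR = 4.78e-06) and 1.16 ± 0.16 at D42 (FDR = 3.62e-05), and over the ileum 1.36 ± 0.24 (FDR = 0.000309), 2.23 ± 0.25 (FDR = 4.34e-06) and 1.45 ± 0.36 (FDR = 0.00404). Its partner ITGA6 was called higher in the rumen than in the ileum at D21 alone and higher in the mid-jejunum than in the ileum at D0. Median-ratio scaling added calls of ITGA6 higher in the rumen than in the ileum at D7 and D42.

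ITGA3, an alpha chain of epithelial laminin receptors, was highest in the mid-jejunum. It measured 107, 205, 131, 142 and 168 CPM in the rumen at D7, 215, 251, 266, 256 and 212 CPM in the mid-jejunum and 96, 66, 63, 51 and 53 CPM in the ileum, and none of these groups overlapped. The mid-jejunum exceeded the ileum by 1.88 ± 0.16 at D7 (limma, FDR = 8.42e-07), 2.19 ± 0.17 at D21 (FDR = 5.97e-07) and 1.37 ± 0.42 at D42 (FDR = 0.023). Against the mid-jejunum the rumen was lower by -1.88 ± 0.33 at D0 (FDR = 0.0112) and -1.01 ± 0.11 at D42 (FDR = 7.61e-06), the latter just past the fold threshold, and lost after median-ratio scaling or without calf 4 or calf 5. ITGB5, which pairs with ITGAV as a vitronectin receptor, was lowest in the ileum. At D21 it measured 152, 132, 156, 155 and 113 CPM in the rumen, 84, 75, 95, 59 and 101 CPM in the mid-jejunum and 22, 20, 23, 18 and 24 CPM in the ileum. The 3 regions were apart from each other. The rumen exceeded the ileum by 2.43 ± 0.14 at D7 (FDR = 1.29e-08), 2.67 ± 0.13 at D21 (FDR = 1.42e-09) and 2.23 ± 0.34 at D42 (FDR = 0.000155), and the mid-jejunum exceeded it by 1.74 ± 0.14 (FDR = 4.57e-07), 1.89 ± 0.15 (FDR = 6.42e-07) and 1.28 ± 0.35 (FDR = 0.0131).

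ITGA7, a laminin receptor chain of muscle, measured 92, 83, 173, 87 and 131 CPM in the rumen at D7, 14, 18, 9, 15 and 20 CPM in the mid-jejunum and 47, 29, 23, 34 and 26 CPM in the ileum. The rumen was clear of both and exceeded the mid-jejunum by 2.80 ± 0.24 (limma, FDR = 2.77e-07) and the ileum by 1.78 ± 0.23 (FDR = 1.94e-05). Smooth muscle markers summed to 4055 to 12835 CPM in those rumen samples and to 763 to 3310 CPM in those of the mid-jejunum, and their part in the ITGA7 difference was not tested. ITGAV was called lower in the mid-jejunum than in the ileum at D7, D21 and D42, and ITGA2B, the platelet integrin chain, was called lower in the rumen than in the mid-jejunum at D21 and D42 and than in the ileum at D42. ITGA1 was called higher in the rumen than in the mid-jejunum at D42 and ITGA10 lower in the rumen than in the ileum at D42, each a collagen receptor chain. Under median-ratio scaling the calls of ITGAV at D21, of ITGA2B between rumen and mid-jejunum at D21 and of ITGA10 were lost, and that of ITGA10 was also lost without ileum animal 1.

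**Figure D4:**
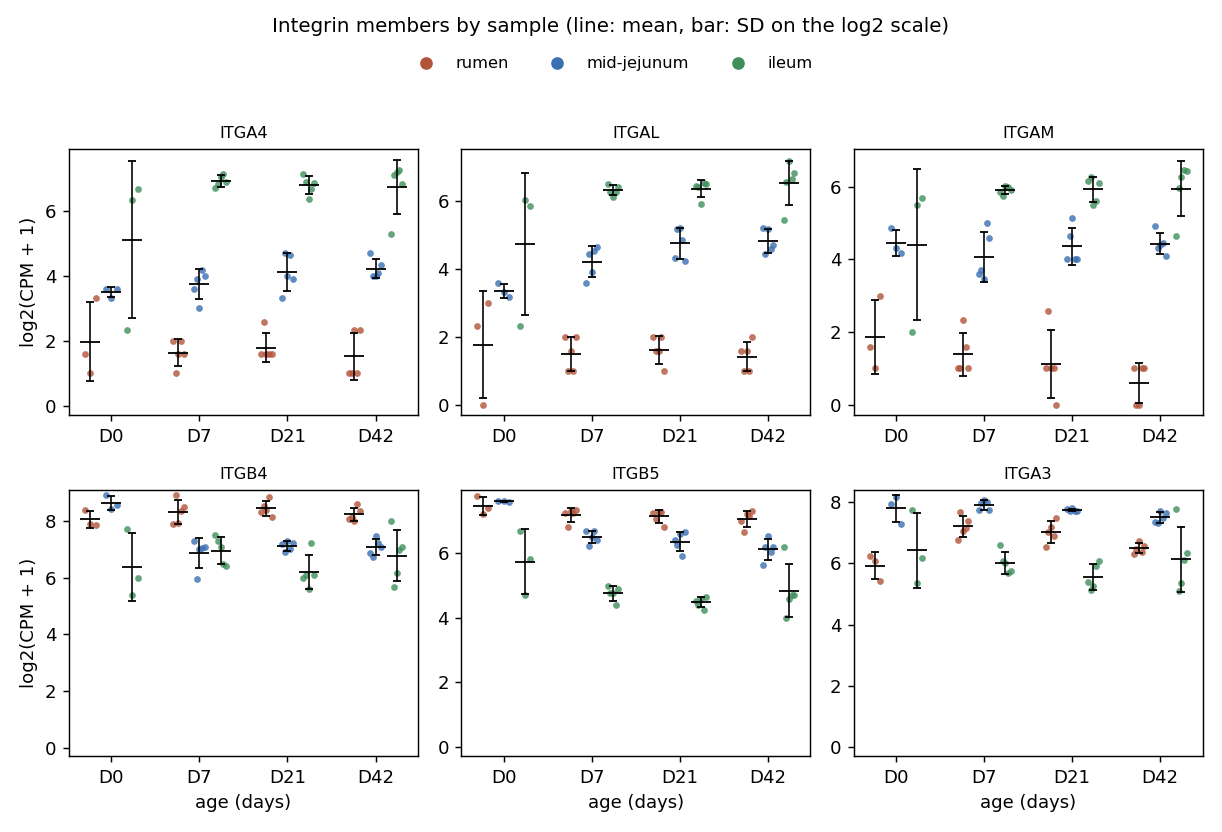
Values of 3 leukocyte integrin chains (upper row) and 3 matrix-binding chains (lower row) in each sample by age (days) and region on the log2(CPM + 1) scale, with points for samples, a line for the mean and a bar for 1 SD of the log2 values. From D7 on the leukocyte chains rank rumen, mid-jejunum, ileum from low to high in nearly every sample, while ITGB4 and ITGB5 sit highest within the mid-jejunum at D0 (342 to 479 and 192 to 197 CPM).

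The leukocyte integrins were lower in the rumen than in either intestinal region from D7 on, and 3 of them were also lower in the mid-jejunum than in the ileum at each of these ages. The 5 that passed the filter on low values in each region (ITGA4, ITGAE, ITGAL, ITGB2 and ITGB7) were called lower in the rumen than in both regions at D7, D21 and D42, and ITGAE and ITGB2 were called lower than in the mid-jejunum at D0. ITGAD and ITGAM did not pass it in the rumen and had to differ there, so they are not counted. Among all genes, 17.6% to 32.3% were called lower in the rumen in the 6 comparisons of D7 to D42. Between mid-jejunum and ileum, ITGA4, ITGAL and ITGAM were called lower in the mid-jejunum at D7, D21 and D42, and ITGB2 at D7, a call lost under median-ratio scaling. Without ileum animal 1, ITGB2 was also called lower in the mid-jejunum at D42 (-1.09 ± 0.18, limma, FDR = 0.000575). Of the 39 regional calls of the 5 chains, 36 held in every fit that left out 1 calf or 1 sample.

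ITGAM is the alpha chain of complement receptor 3 on neutrophils and macrophages. It was listed at 2, 1 and 7 CPM in the rumen at D0, 1, 1, 4, 2 and 1 CPM at D7, 1, 5, 1, 1 and 0 CPM at D21, and 1, 0, 0, 1 and 1 CPM at D42. In the mid-jejunum it measured 28, 19 and 17 CPM, then 11, 12, 10, 31 and 23 CPM, then 15, 24, 34, 15 and 15 CPM, and then 29, 19, 20, 21 and 16 CPM at these ages. In the ileum it measured 3, 44 and 51 CPM, then 57, 53, 64, 63 and 59 CPM, then 71, 76, 44, 48 and 68 CPM, and then 24, 61, 76, 87 and 85 CPM. No rumen sample reached the lowest mid-jejunum sample of its age, and the ileum lay above the mid-jejunum at D7 and D21 throughout. At D0 and D42 the exceptions were ileum animals 1, with 3 and 24 CPM. The mid-jejunum was lower than the ileum by -1.84 ± 0.26 at D7 (limma, FDR = 6.41e-05), -1.58 ± 0.24 at D21 (FDR = 0.000143) and -1.52 ± 0.33 at D42 (FDR = 0.00404). Rumen ITGAM did not pass the filter on low values within that region, and its values lie near the 1 CPM step. It was tested there only through its intestinal values and had to be lower, so no fold is given for the rumen.

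ITGA4 pairs with ITGB1 or ITGB7 and directs lymphocytes to the gut. It measured 3, 1, 2, 3 and 2 CPM in the rumen at D7, 11, 14, 7, 17 and 15 CPM in the mid-jejunum and 102, 113, 131, 139 and 116 CPM in the ileum. The 3 regions were fully apart. The rumen values lie near the 1 CPM step, so the size of the rumen differences of ITGA4 is imprecise. The rumen was lower than the ileum by -5.28 ± 0.19 at D7 (limma, FDR = 2.1e-10), -5.00 ± 0.22 at D21 (FDR = 8.42e-10) and -5.20 ± 0.43 at D42 (FDR = 2.22e-06), and the mid-jejunum by -3.18 ± 0.20 (FDR = 8.27e-08), -2.67 ± 0.25 (FDR = 2.41e-06) and -2.51 ± 0.35 (FDR = 0.00053). At D0 the ileum held 4, 80 and 100 CPM, the 4 CPM in animal 1, and ITGA4 was not called there (-1.61 ± 1.16, FDR = 0.373). ITGAL, the alpha chain of LFA-1 on lymphocytes and other leukocytes, gave -2.10 ± 0.19 between mid-jejunum and ileum at D7 (FDR = 1.63e-06), with 11, 21, 14, 22 and 24 CPM against 90, 76, 69, 76 and 85 CPM. The ileum was higher in every sample.

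ITGAE and ITGB7 together form the integrin of intraepithelial lymphocytes that binds E-cadherin. Both were called lower in the rumen than in the intestine at D7, D21 and D42, but neither was called between mid-jejunum and ileum at any age, where their differences ran from -0.19 to 0.80. ITGAD, an alpha chain of macrophages, was listed at 0 in all rumen samples of D0, D7 and D42, so no fold is given for it, and it measured 5 to 23 CPM in the mid-jejunum. T cell markers summed to 11 to 194 CPM in the rumen, 133 to 424 CPM in the mid-jejunum and 78 to 303 CPM in the ileum, myeloid markers to 64 to 518, 534 to 1443 and 506 to 1792 CPM, and B cell markers to 0 to 32, 15 to 375 and 49 to 2650 CPM. The rumen ranges lay below those of the mid-jejunum in the myeloid list and, apart from rumen animal 2 of D0 with 194 CPM, in the T cell list, and the T cell and myeloid ranges of mid-jejunum and ileum overlapped widely. Single markers went both ways. CD3D and CD3G reached 120 and 68 CPM in the rumen, against 73 and 33 CPM in the mid-jejunum. CD2, CD3E, CD5 and CD247 reached only 2, 5, 2 and 10 CPM in the rumen, against 54, 136, 24 and 106 CPM. Of the myeloid markers, CD14 and CD163 reached more in the rumen (90 and 132 CPM) than in the mid-jejunum (49 and 50 CPM), and the rest less. The part of leukocyte number in these results was not tested.

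At D0 the ileal values of these chains depend on the doubted libraries. In 1 fit of all 12 groups without the 3 ileum samples that do not follow the study's table, 10 members were higher and 7 lower in the rumen than in the ileum at D0 (10.8% and 19.9% of all genes), including ITGA4, ITGAD, ITGAL, ITGAM and ITGB2 among the lower. In that fit 3 members were higher and 5 lower in the mid-jejunum than in the ileum (7.10% and 12.4%), where ITGA4 differed by -3.16 ± 0.56 (limma, FDR = 3.02e-05) and ITGAL by -2.50 ± 0.57 (FDR = 0.00091). The lone remaining ileum sample of D0 was assumed to vary like the other groups. With all 12 groups and all samples in 1 fit the D0 counts were 21 for rumen and mid-jejunum, 23 for rumen and ileum and 10 for mid-jejunum and ileum. Between mid-jejunum and ileum at D0, leaving out calf 1 gave 9 calls and leaving out calf 2 or calf 3 gave 0, and the 4 members of the comparison with all samples were COL12A1, ITGA6, ITGA10 and LAMC1 (ENSBTAG00000011966). At D42, leaving out ileum animal 1 gave 5 higher and 8 lower members in the mid-jejunum (12.2% and 16.0% of all genes), and leaving out calf 4 gave 5 in all.

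With the animal number as a replicate block, which compares regions within a calf, the D0 count was 2 for rumen and ileum in place of 0, and 0 for mid-jejunum and ileum in place of 4.

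The integrin-associated proteins differed little. ITGB1BP1, which binds the tail of ITGB1, was called nowhere and ranged from 18 to 52 CPM over all samples. ITGB3BP, a nuclear and centromere protein first named for binding ITGB3, was called lower in the rumen than in the ileum at D7, D21 and D42, with 3, 2, 3, 4 and 4 CPM against 10, 8, 11, 9 and 9 CPM at D21. The groups did not overlap, and the difference of -1.33 ± 0.19 (limma, FDR = 4e-05) was -0.99 after median-ratio scaling, under the fold threshold. Of the members without a symbol, ENSBTAG00000027181 was called higher in the rumen than in the mid-jejunum at all 4 ages and than in the ileum at D7 to D42, with 114, 232, 164, 178 and 246 CPM in the rumen at D7 against 10, 7, 8, 17 and 16 CPM in the mid-jejunum. ENSBTAG00000015650 was listed at 0 in all 18 rumen samples and at 0 to 5 CPM in the mid-jejunum, against 0 to 76 CPM in the ileum. The remaining 4 had 10 regional calls in all, in both directions.

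Within a region few members were called between adjacent ages, and these calls were all in the mid-jejunum during the first week. There limma called 6 of 49 members from D0 to D7, all lower at D7. Of all genes 9.50% were called in either direction, so the share of members was near that of all genes. In the mid-jejunum 0 were called at each of the 2 later steps (0% and 0% of all genes), with 2 and 3 at an unadjusted p under 0.05. In the rumen 0 of 48 were called at each step (0%, 0.0620% and 0% of all genes), with 1, 6 and 8 at an unadjusted p under 0.05. In the ileum 0 of 51 were called at each step (0%, 0% and 0%), with 7, 21 and 2 at an unadjusted p under 0.05. The shares of all genes at that p are not given, so these counts are no result about the members. The 19 members of the pathway list had been picked by the study for a change with age in the ileum of these calves, so the ileal values are a description.

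The 6 members that fell in the mid-jejunum were both LAMC1 identifiers, COL4A6, ITGA10, ITGB4 and ITGB5. LAMC1 (ENSBTAG00000022635) measured 581, 649 and 590 CPM at D0, 75, 83, 65, 104 and 170 CPM at D7, 135, 86, 195, 94 and 74 CPM at D21, and 72, 103, 216, 112 and 152 CPM at D42. No later sample reached the D0 values. The change to D7 was -2.68 ± 0.26 (limma, FDR = 7.74e-05). ITGB4 went from 479, 342 and 380 CPM to 156, 61, 129, 130 and 136 CPM, a change of -1.75 ± 0.27 (FDR = 0.00113), and ITGB5 from 197, 197 and 192 CPM to 102, 74, 89, 102 and 84 CPM, a change of -1.12 ± 0.13 (FDR = 0.000195). These 3 kept their call in all 8 fits that left out 1 sample, and ITGB5 lost it after median-ratio scaling, whereas without mid-jejunum animal 1 or 2 of D0 the total was 3, and LAMC1 (ENSBTAG00000011966), at -1.08 ± 0.33 (FDR = 0.0374), kept its call in 2 of the 8. In the rumen the D7 comparison rests on animal 2 of D0: without it 4 members were called, with ITGA3 higher at D7 by 1.37 ± 0.28 (FDR = 0.011) and ITGA10, COL14A1 and COL7A1 lower. The share of all genes called in that fit is not given, so the count is no result about the members. That library was picked by its low fibrillar collagen values, so these changes are a description. Without rumen animal 3 of D21, 1 member was called from D7 to D21.

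Whether a first-week change was unequal in 2 regions was tested as an interaction. Between rumen and mid-jejunum 3 members were called (3.37% of all genes), each with the higher change in the rumen: LAMC1 (ENSBTAG00000022635) at 2.95 ± 0.73 (limma, FDR = 0.0334), ITGB4 at 2.01 ± 0.41 (FDR = 0.0105) and ITGA6 at 1.29 ± 0.30 (FDR = 0.0248). Between mid-jejunum and ileum 7 were called (9.56%), each with the lower change in the mid-jejunum, led by ITGB4 at -2.34 ± 0.61 (FDR = 0.0269). Of these 7, ITGAV and both LAMC1 identifiers are in the pathway list that the study picked for a change with age in the ileum, so their values here are a description. Between rumen and ileum 0 were called (0.0211%), with 3 at an unadjusted p under 0.05. With the replicate block 0 were called between rumen and mid-jejunum and 2 between mid-jejunum and ileum. In 1 fit of all 12 groups without the 3 doubted ileum samples ITGB4 alone was called between mid-jejunum and ileum (-2.71 ± 0.53, FDR = 0.00318). Leaving out calf 2 or 3 of D0 or calf 2 of D7 gave 5, 1 and 1 calls between rumen and mid-jejunum. Leaving out calf 2 or 3 of D0 gave 10 and 1 between rumen and ileum. Leaving out calf 1 or 2 of D0 or calf 1, 2 or 3 of D7 gave 2, 0, 0, 0 and 1 between mid-jejunum and ileum.

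Over the whole period, in comparisons of D42 with D0 added after the data were seen, 3 mid-jejunal members were higher and 8 lower at D42 (15.1% of all genes called in either direction). The 8 were the 6 of the first week and also ITGAV (-1.08 ± 0.20, limma FDR = 0.0028) and COL12A1 (-1.08 ± 0.25, FDR = 0.00716). ITGAL rose from 11, 9 and 8 CPM to 36, 21, 35, 23 and 25 CPM, without overlap (1.47 ± 0.20, FDR = 0.00062), ITGA7 rose by 1.13 ± 0.30 (FDR = 0.0144), and THBS4 by 2.39 ± 0.84 (FDR = 0.0425), a call kept in 1 of the 8 fits that left out a sample. In the ileum limma called 0 members (0%), with 2 at an unadjusted p under 0.05.

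In the rumen limma also called 0 members from D0 to D42 (0% of all genes), with 3 at an unadjusted p under 0.05, but this rests on rumen animal 2 of D0. Without it 24 members were lower and 1 higher at D42 (24.0% and 5.61% of all genes). The lower members were led by COL2A1 (-2.60 ± 0.62, limma FDR = 0.00918), COL1A2 (-2.55 ± 0.47, FDR = 0.00334), COL1A1 (-2.51 ± 0.52, FDR = 0.00535) and COL3A1 (-2.48 ± 0.48, FDR = 0.00391), and they included COL7A1 (-2.00 ± 0.37, FDR = 0.00326) and the 3 collagen VI chains. TNC was the 1 member higher (1.63 ± 0.57, FDR = 0.0408). The library left out was picked by its low fibrillar collagen values, so these differences are a description. With 2 samples left at D0, which of the 3 libraries is typical of the newborn rumen was not tested.

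Other genes of matrix turnover and integrin signalling were followed from lists set by function. Of 12 integrin adaptors and collagen receptor kinases, 6 were called higher and 1 lower in the rumen than in the mid-jejunum at D7 (14.6% and 17.6% of all genes). The counts against the ileum were the same (14.3% and 25.2% of all genes). FERMT3, kindlin-3, which activates integrins in blood cells, measured 1, 1, 2, 1 and 2 CPM in the rumen at D7, 28, 30, 28, 29 and 34 CPM in the mid-jejunum and 100, 115, 110, 122 and 161 CPM in the ileum. FERMT3, the 1 lower gene in both counts, did not pass the filter on low values in the rumen. It entered only through the intestine, so that it had to differ there. Its mid-jejunum values at D7 lay below all of its ileum values, as did those of ITGA4, ITGAL and ITGAM. DDR1, a collagen receptor kinase of epithelium, went from 1576, 1803 and 1361 CPM in the mid-jejunum at D0 to 191, 80, 81, 67 and 88 CPM at D7. The D0 samples were far above the rest, and DDR1 was called higher in the mid-jejunum than in the rumen at D0 and lower at each later age.

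Of 22 genes of matrix assembly and proteoglycans, 7, 13, 8 and 5 were called higher in the rumen than in the mid-jejunum at D0, D7, D21 and D42, and 1, 1, 2 and 2 lower. Of all genes, 7.38%, 14.6%, 10.7% and 10.0% were called higher and 12.8%, 17.6%, 21.9% and 23.5% lower. ECM1, a secreted protein that binds perlecan and is abundant in squamous epithelium, measured 431, 746, 368, 622 and 629 CPM in the rumen at D7 against 24, 29, 30, 39 and 35 CPM in the mid-jejunum, a difference of 4.08 ± 0.20 (limma, FDR = 7.61e-10). SMOC2, a calcium-binding matrix protein, was the reverse, with 2, 5, 2, 5 and 6 CPM in the rumen, 173, 132, 142, 137 and 171 CPM in the mid-jejunum and 33, 28, 33, 20 and 20 CPM in the ileum at D7, and the 3 regions did not overlap. Of the 11 further matrix genes named in the study's tables but outside the members, 6 were higher and 2 lower in the rumen than in the mid-jejunum at D7. The shares of all genes were 14.6% and 17.6%. COL8A1, a short-chain collagen of vessels and other tissues, measured 143, 32, 343, 195 and 29 CPM in the rumen at D7 against 1, 1, 1, 3 and 5 CPM in the mid-jejunum (5.12 ± 0.62, FDR = 1.03e-05). MMP1, an interstitial collagenase, stands under 2 identifiers, which may share reads. Neither passed the filter on low values in the rumen. Both entered the rumen comparisons only through the intestine, so lower rumen values were favoured by the filter. ENSBTAG00000048029 of MMP1 was listed at 0 in all 5 rumen samples of D42 and at 33, 41, 19, 17 and 12 CPM in the mid-jejunum.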

How the data were processed

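RNA-Seq values of 54 samples (18 each of rumen, mid-jejunum and ileum) were analysed. Per the labels and the methods, the authors sorted reads with CASAVA 1.8, aligned them to UMD 3.1 with TopHat2 2.0.10, counted them with HTSeq and divided by total mapped reads. The deposited unit is a score, a CPM rounded to whole numbers; the values of a file sum to 970214 to 984626, so the depth of a library is unknown and no count test was run. The 17 distal jejunum files hold the ileum values and were left out. Region, age and animal number came from the labels.

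Log2(CPM + 1) was fitted with limma 3.58.1 (R 4.3.3; lmFit, eBayes with trend) on the groups compared. Genes with a value of at least 2 in 50% of the 18 samples of a region entered (either region for regional comparisons); 48, 49 and 51 members passed in rumen, mid-jejunum and ileum, and 47 in all 3. Adjustment was by Benjamini-Hochberg over all genes tested. Errors are standard errors of the log2 difference, and fold changes of low genes are understated by the pseudocount of 1. Tables were made with Python 3.11.15, numpy 2.4.6 and pandas 2.3.3, figures with matplotlib 3.10.9. The fit was tested on simulated data.

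The members and lists were chosen with earlier results of these data known. Sample values are given, per role, for the 3 members called in most of the 12 regional comparisons and for the 3 largest calls of each age step, with at most 2 identifiers without a symbol in each direction, and for the 2 genes with most calls of each further list. Values of COL3A1, ITGA6, ITGAV, ITGA10, COL18A1 and of members led to by leaving out a library were chosen after they were seen. Symbols came from the study's supplementary tables (all 44 member symbols are also in the RefSeq gene table). No sequence or coordinate is given.

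The animal number pairs regions: at each age, samples that share it were taken as 1 calf. The deviations of such samples from their group means correlated at r from -0.492 to 0.365 over genes, and the fit with the number as a block was run as an alternative. Further alternatives were a pseudocount of 0.1, no filter, all 12 groups in 1 fit, median-ratio scaling, the 12-group fit without 3 ileum samples, and leaving out calves or samples in turn; comparisons of D42 with D0 and the fits without rumen animal 2 of D0 or ileum animal 1 of D42 were added after the data were seen.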

Additional observations from a re-analysis of the deposited data

Results flagged for a closer look

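Within groups of 5 samples, 32 of 233 tests over the 26 members with sample values found 1 sample far from the other 4. Chance alone gives about 1 in 20. Of these samples 13 were ileum animal 1 of D42, each time the highest of 5: COL1A1 at 3647 CPM, COL1A2 at 3127, COL4A6 at 118, COL6A1 at 858, COL6A3 at 921, COL7A1 at 53, DAG1 at 178, ITGA3 at 220, ITGA7 at 67, ITGB5 at 73, THBS4 at 49 and LAMC1 at 310 (ENSBTAG00000011966) and 255 CPM (ENSBTAG00000022635). In that library B cell markers summed to 381 CPM, intestinal epithelial markers to 4399 and smooth muscle markers to 2325 CPM, and their part in these values was not tested.

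In the rumen, animal 3 was highest at D21 for TNC (444 CPM) and ITGA7 (259 CPM) and at D7 for COL2A1 (55 CPM), where it was a different calf. Animal 2 was highest at D21 for ITGA4 and ITGAM (5 CPM each), animal 2 lowest at D7 for ITGB5 (111 CPM), and animal 5 highest at D42 for TNC (366 CPM). In the mid-jejunum, animal 3 was highest at D21 for COL4A6 (24 CPM), COL6A3 (613 CPM) and THBS4 (31 CPM), and animal 5 highest at D7 for TNC (452 CPM), THBS4 (23 CPM) and COL2A1 (7 CPM). At D7 animal 3 was lowest there for COL7A1 (7 CPM) and animal 2 for ITGB4 (61 CPM), and at D42 animal 1 for COL13A1 (3 CPM). In the ileum, the samples far from the rest were COL2A1 in animal 5 of D7 (11 CPM), ITGAL in animal 3 of D21 (60 CPM, the lowest) and ITGB4 in animal 4 of D21 (148 CPM).

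The change from D0 to D7 differed between regions by the interaction test for 10 results. Between rumen and mid-jejunum the differences were 2.95 for LAMC1 (ENSBTAG00000022635), 2.01 for ITGB4 and 1.29 for ITGA6. Between mid-jejunum and ileum they were -2.34 for ITGB4, -1.98 for ITGAV, -1.91 for LAMC1 (ENSBTAG00000022635), -1.86 for COL12A1, -1.66 for LAMC1 (ENSBTAG00000011966), -1.63 for ITGA10 and -1.30 for ITGA6. Of these, ITGAV and both LAMC1 identifiers are in the pathway list picked by the study for a change with age in the ileum, so their values are a description. Ileum animals 1 and 2 of D0, which do not follow the study's table, enter all of the comparisons of mid-jejunum and ileum.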

How the results depend on the processing

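Most regional results from D7 to D42 kept their counts, and those that touch D0 did not. Where a count of an alternative fit, here or above, stands without the share of all genes, it shows only how far the count moved. Of 186 regional calls, 136 held in every fit that left out samples, 153 in every other alternative and 129 in both. With all 12 groups in 1 fit the counts at D0 were 21 (rumen and mid-jejunum), 23 (rumen and ileum) and 10 (mid-jejunum and ileum). That fit gave 1 for the rumen and 6 for the ileum from D0 to D7, 3 for the rumen and 7 for the mid-jejunum from D0 to D42, and 4 for the mid-jejunum and ileum interaction. Without the 3 ileum samples it gave 17 (rumen and ileum) and 8 (mid-jejunum and ileum) at D0, 13 between mid-jejunum and ileum at D42, 1 for the ileum from D0 to D7 and from D0 to D42, and 1 for the mid-jejunum and ileum interaction. With no filter the mid-jejunum and ileum count at D0 was 1, the mid-jejunal D7 count 3 and the mid-jejunum and ileum interaction 1. Median-ratio scaling gave 2 (rumen and ileum) and 7 (mid-jejunum and ileum) at D0.

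With the animal number as a replicate block the D0 counts were 2 (rumen and ileum) and 0 (mid-jejunum and ileum), and the interactions 0 (rumen and mid-jejunum) and 2 (mid-jejunum and ileum); it moved no other count by over 1.5 times. Leaving out 1 calf or sample gave 2 to 26 calls between rumen and mid-jejunum at D0, 0 to 5 between rumen and ileum at D0, 0 to 9 between mid-jejunum and ileum at D0 and 5 to 13 at D42. It gave 0 to 4 for the rumen from D0 to D7, 0 to 1 from D7 to D21 and 0 to 25 from D0 to D42, 3 to 7 for the mid-jejunum from D0 to D7, and 1 to 5, 0 to 10 and 0 to 9 for the interactions of rumen and mid-jejunum, rumen and ileum, and mid-jejunum and ileum. The pseudocount of 0.1 moved no count by over 1.5 times. The cause of these changes was not tested. Rounded CPM limit members near 1 CPM, such as rumen ITGAM.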
